A study of Rattus norvegicus with 11 samples.

Results

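Collagens are the triple-helical proteins that give the extracellular matrix its strength, and each is built from 3 alpha chains encoded by their own genes. All genes named Col, a number, a and a number were taken as collagen chain genes, which gave 42 of the 32883 genes measured. They were followed in rat bone marrow mesenchymal stem cells (BMSCs), adherent stromal cells of marrow with the capacity to become osteoblasts, adipocytes or chondrocytes. Poly(A) RNA was sequenced at day 3 in 11 libraries, of which 4 were control BMSCs, 3 carried the label imDC and 4 the label IRDC. According to the series text the cells were given medium conditioned by mDC (dendritic cells, the antigen-presenting cells of the immune system), either unirradiated at 0 Gy or irradiated at 8 Gy. No title states a dose, so only the names tie imDC to the unirradiated medium and IRDC to the irradiated one. The strain and age of the rats, the medium of the controls and the number of medium batches are not given in the sources used here. An effect of the conditioned medium and an effect of its batch, or of other differences between the cultures, cannot be told apart. The titles number biological replicates but name no animal or culture for them, so each p-value is set by the spread among these libraries, part of which may be technical.

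Chains fold together in the endoplasmic reticulum after prolyl and lysyl hydroxylation, are secreted, trimmed and assembled, and are cross-linked by lysyl oxidases. Fibrillar collagens (types I, II, III, V, XI, XXIV and XXVII) form the banded fibrils of bone, skin and cartilage. FACIT collagens (types IX, XII, XIV, XVI, XIX, XX and XXII) sit on the surface of those fibrils, type IV forms the sheet of basement membranes, type VI forms beaded filaments around cells, and type VII anchors basement membranes to the tissue below. Stromal cells of marrow and bone make mainly type I collagen, whose fibrils carry the mineral of bone. Col1a2, Col6a3 and Col21a1, which encode further chains of types I, VI and XXI, were not analysed here, so sums over a class do not hold them.

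The unit was FPKM (fragments per kilobase, normalised to the size of the library), which is per length, so levels of different genes can be set side by side. The values resolved into whole reads and the libraries held 17.8 to 25.5 M of them (M stands for mega). The stromal label was checked against 12 marker genes, of which 11 passed the expression filter and Lepr did not, with Thy1, a surface glycoprotein gene, at 977 ± 20.2 FPKM in control (SD, n = 4). Of the stromal markers 6 were called higher and 5 lower in imDC against control, 8 and 3 in IRDC against control, and 7 and 4 in IRDC against imDC. Vcam1 stood at 32.7 ± 0.886, 16.8 ± 0.731 and 6.03 ± 0.440 FPKM in control, imDC and IRDC, and Nt5e at 22.8 ± 1.11, 82.9 ± 0.789 and 164 ± 4.23 FPKM. Of 12 dendritic cell and macrophage markers 10 passed as well, and their summed level was 825 to 844 FPKM in control, 768 to 798 in imDC and 429 to 436 in IRDC libraries. Lyz2, a macrophage lysozyme gene, made up 519 ± 5.87, 496 ± 11.2 and 185 ± 3.25 FPKM of it, and none of the 12 was at 0 in every library. The list did not move as 1, with 4 called higher and 5 lower in imDC against control, 2 and 8 in IRDC against control, and 1 and 8 in IRDC against imDC. Of all genes tested, 23.1%, 24.5% and 20.2% were called higher in these comparisons, and 40.1%, 51.5% and 38.6% lower. Cd14, a receptor gene of monocytes, went against the sum, at 47.9 ± 2.49, 74.5 ± 4.96 and 89.1 ± 2.32 FPKM in control, imDC and IRDC, and Itgam stood at 5.72 ± 0.249, 7.52 ± 0.436 and 7.12 ± 0.387 FPKM. Smooth muscle and pericyte markers summed to 742 to 775, 844 to 869 and 982 to 1000.04 FPKM in the same order, a rise carried by Tagln and Cnn1. In IRDC against control 3 of the 5 tested, Acta2, Myh11 and Des, were called lower, beside 51.5% of all genes tested. Des passed the filter only through control and imDC, where it was higher. Bone cell markers summed to 287 to 299.5, 199 to 210.1 and 82.4 to 88.4 FPKM, a fall that rests on Spp1 and Alpl, since Runx2 and Sp7, the other 2 tested, passed in no comparison under the deposited scaling. Cartilage markers stayed at or under 4.17 FPKM in sum and endothelial markers at or under 5.46, with the endothelial gene Emcn at 0 throughout. Single markers of these lists moved with the groups, and their part in the collagen results was not tested. In bulk RNA fewer cells of a type cannot be told apart from less RNA per cell.

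Promoter sequence was available for 33 of the 42 genes in the RefSeq table of build GRCr8, and 4 stretches are shown, chosen for genes with large changes (Col7a1, Col6a1), a pair that moved together (Col4a1, Col4a2) and a gene whose neighbour moved the other way (Col5a2). Capitals mark any of 4 motifs, searched on both strands. The GC box is a binding sequence of Sp1-type factors and was spelled GGGCGG. The CCAAT box, bound by NF-Y, was searched by the letters of its name. The TATA box, bound by the general transcription machinery, was spelled TATAAA. The AP-1 site, bound by Fos and Jun proteins, was spelled TGANTCA. None of these motifs overlapped another in the stretches shown. Col4a1 and Col4a2 are transcribed in opposite directions from starts 76 bases apart, and the whole stretch between the starts is printed on the plus strand. The other stretches are the 250 bases before the start of each gene, on its own strand.
Col4a2 to Col4a1, chr16:84885521-84885596, plus strand: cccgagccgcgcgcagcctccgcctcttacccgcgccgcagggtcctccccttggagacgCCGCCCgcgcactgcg
Col7a1, chr8:118483114-118483363, plus strand: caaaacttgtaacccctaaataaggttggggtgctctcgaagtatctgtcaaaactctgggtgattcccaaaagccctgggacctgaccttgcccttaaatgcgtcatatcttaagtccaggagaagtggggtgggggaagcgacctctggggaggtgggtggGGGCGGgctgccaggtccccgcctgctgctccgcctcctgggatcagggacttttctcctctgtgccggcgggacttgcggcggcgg
Col6a1, chr20:11905440-11905689, plus strand: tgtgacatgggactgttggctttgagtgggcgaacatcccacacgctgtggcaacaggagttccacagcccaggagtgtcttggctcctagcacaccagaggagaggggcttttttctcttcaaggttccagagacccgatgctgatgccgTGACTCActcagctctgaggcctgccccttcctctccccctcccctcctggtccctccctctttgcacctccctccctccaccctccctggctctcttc
Col5a2, chr9:55090152-55090401, minus strand: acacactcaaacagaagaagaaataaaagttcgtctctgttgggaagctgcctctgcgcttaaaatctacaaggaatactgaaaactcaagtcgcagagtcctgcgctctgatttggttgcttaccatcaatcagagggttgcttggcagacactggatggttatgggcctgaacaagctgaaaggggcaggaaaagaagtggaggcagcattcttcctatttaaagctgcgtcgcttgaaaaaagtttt
The Col4 stretch and that of Col7a1 each held a single GC box, that of Col6a1 held a single AP-1 site, and that of Col5a2 held none of the 4 motifs. In the 250 bases before the start, a GC box was found in 19 of 33 collagen genes (57.6%) and in 32.4% of 27457 windows of all genes. A CCAAT box was found in 30.3% of the collagen windows and 34.3% of all windows, a TATA box in 9.09% and 13.1%, and an AP-1 site in 3.03% and 6.36%. These matches describe letters only and were set against no test.

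Of the 42 collagen genes, 21 reached 1 FPKM in at least 3 libraries and were tested, and the other 21 stayed at or under 1.181 FPKM in every library. A gene was called where limma gave a Benjamini-Hochberg adjusted p under 0.05 over all 12521 genes tested. In imDC against control all 21 tested genes were called, 11 higher and 10 lower, where 63.2% of all genes tested were called, 23.1% higher and 40.1% lower. With quantile normalization the split in that comparison was 8 higher and 11 lower. IRDC against control had 7 higher, 12 lower and 2 that did not pass, beside 76.0% of all genes called, 24.5% higher and 51.5% lower. In IRDC against imDC 9 were higher, 11 lower and 1 did not pass, beside 58.8% of all genes called, 20.2% higher and 38.6% lower. A change of at least 2-fold was called in 2, 6 and 4 of the 21, against 6.87%, 15.8% and 5.14% of all genes tested. Col7a1, Col9a2 and Col15a1 passed the filter only through the groups where they were high, so these counts are a description. A background of like level for the 17 collagen genes with a group mean of at least 10 FPKM is the 7158 genes at that level. All 17 were called in each comparison, against 73.1% of those genes in imDC against control, 83.3% in IRDC against control and 68.9% in IRDC against imDC. Changes of at least 2-fold were found in 1, 5 and 3 of the 17, against 7.32%, 16.5% and 5.90% of genes at that level. The median change of the 17 was -0.13, -0.32 and -0.10 on the log2 scale, and that of all genes tested was -0.09, -0.18 and -0.09. The median of the 7158 genes of like level was not computed. The comparisons with control share the control libraries and are not independent of each other. TMM-like scaling moved the median of all genes by 0.16 and quantile normalization by 0.15 in IRDC against control, and quantile normalization moved it by 0.10 in IRDC against imDC. Of all genes called, 36.59%, 32.26% and 34.43% were higher under the deposited scaling, 50.29%, 48.29% and 47.31% with TMM-like scaling and 44.17%, 46.27% and 50.23% with quantile normalization.

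The summed level of the 42 genes was 6836 to 7092 FPKM in control, 6726 to 6768 in imDC and 6210.0 to 6288 in IRDC libraries. It came to 1.64% ± 0.0276 of all FPKM in control (SD, n = 4), 1.52% ± 0.00759 in imDC (n = 3) and 1.43% ± 0.00698 in IRDC (n = 4). The share of recovered reads, which counts long genes more, was 3.64% ± 0.0555, 3.64% ± 0.0136 and 3.47% ± 0.0186, and control and imDC overlapped on that scale. Fibrillar genes made up 67.0% ± 0.131 of collagen FPKM in control, 73.5% ± 0.236 in imDC and 80.3% ± 0.0872 in IRDC. Type VI genes held 11.0% ± 0.118, 6.82% ± 0.0967 and 2.74% ± 0.0317 of it. Type IV genes held 6.19% ± 0.0759 in control, 3.59% ± 0.0360 in imDC and 3.54% ± 0.0239 in IRDC, and the imDC and IRDC ranges overlapped. FACIT genes were highest in imDC, at 9.57% ± 0.183, 11.6% ± 0.148 and 7.53% ± 0.0515. The genes of types VIII and X were lowest there, at 5.84% ± 0.0385, 4.10% ± 0.0199 and 5.46% ± 0.0388. Shares of 1 total move against each other by construction, and no test was run on these sums. Neither the total nor the shares hold Col1a2, Col6a3 or Col21a1, so they describe only the 42 genes analysed.

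**Figure D1:**
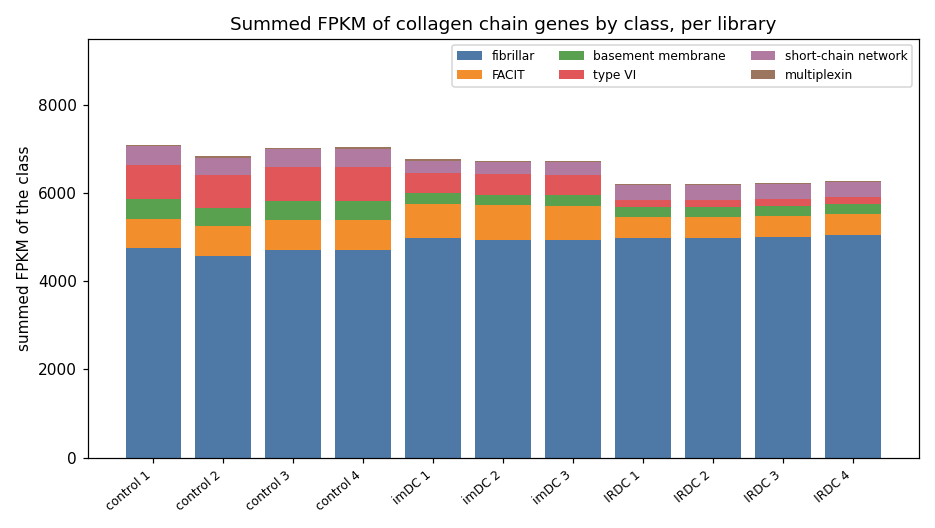
Summed FPKM (vertical axis) of the collagen chain genes by class in each of the 11 libraries, as stacked bars. The type VI part is 739 to 785 FPKM in control and 169 to 173 FPKM in IRDC libraries, while the fibrillar part is 4577 to 4754 FPKM in control and 4982 to 5054 FPKM in IRDC libraries.

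Among fibrillar collagens, the type I and type V chains Col1a1, Col5a1 and Col5a2 rose in both imDC and IRDC while the type III chain gene Col3a1 fell, with the exception that Col5a2 was lower by a log2 change of -0.07 in imDC against control under quantile normalization. Col1a1 (ENSRNOG00000003897), which encodes the main chain of bone collagen, stood at 1791, 1716, 1779.8 and 1769 FPKM in control libraries, 2411, 2375 and 2361 in imDC and 2450.0, 2448, 2484 and 2499 in IRDC. Every imDC and IRDC library stood above every control library. For Col1a1, limma gave a log2 change of 0.43 (SE 0.016, adjusted p = 1.77e-10) in imDC against control, 0.49 (SE 0.015, adjusted p = 9.41e-12) in IRDC against control and 0.05 (SE 0.016, adjusted p = 0.0137) in IRDC against imDC. The change between imDC and IRDC was small and was lost without a filter (adjusted p = 0.0792), without the variance trend (0.122) and without imDC replicate 3 (0.0575). Col3a1 (ENSRNOG00000003357), which encodes the collagen of elastic and early repair tissue, stood at 1939, 1872, 1930.4 and 1928 FPKM in control libraries, 1384, 1370.2 and 1372 in imDC and 1178, 1176, 1181 and 1188 in IRDC. Control, imDC and IRDC libraries formed 3 ranges that did not overlap. For Col3a1, limma gave a log2 change of -0.48 (SE 0.014, adjusted p = 1.54e-11) in imDC against control, -0.70 (SE 0.013, adjusted p = 5.81e-14) in IRDC against control and -0.22 (SE 0.014, adjusted p = 3.65e-08) in IRDC against imDC. Col3a1 was the 9th most abundant gene of all in each control library, the 19th or 20th in imDC and the 29th or 30th in IRDC, while Col1a1 went from the 10th to the 6th and to the 3rd or 4th.

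Type V collagen nucleates type I fibrils and limits their width. Col5a1 (ENSRNOG00000008749), its first chain, stood at 221, 207, 218 and 218 FPKM in control libraries, 302, 303 and 298 in imDC and 354, 355, 358 and 361 in IRDC. For Col5a1, limma gave a log2 change of 0.48 (SE 0.021, adjusted p = 1.16e-09) in imDC against control, 0.72 (SE 0.02, adjusted p = 3.31e-12) in IRDC against control and 0.25 (SE 0.021, adjusted p = 7.93e-07) in IRDC against imDC. The 3 groups did not overlap. Col5a2 (ENSRNOG00000003736), its second chain, a neighbour of Col3a1 on chromosome 9, stood at 537, 518, 523 and 527 FPKM in control libraries, 639, 643 and 644 in imDC and 796, 790.3, 784 and 796 in IRDC. For Col5a2, limma gave a log2 change of 0.29 (SE 0.014, adjusted p = 3.1e-09) in imDC against control, 0.59 (SE 0.013, adjusted p = 4.59e-13) in IRDC against control and 0.30 (SE 0.014, adjusted p = 2.62e-09) in IRDC against imDC. Col5a2 and Col3a1 are next to each other among protein-coding genes in RefSeq and moved in opposite directions under the deposited scaling. Col5a3 (ENSRNOG00000020525), the least abundant type V chain, stood at 34.9, 32.4, 36.0 and 34.9 FPKM in control libraries, 11.4, 12.2 and 12.8 in imDC and 16.6, 16.1, 16.0 and 16.9 in IRDC. It was lowest in imDC, and IRDC libraries lay between the other groups without overlap. For Col5a3, limma gave a log2 change of -1.44 (SE 0.044, adjusted p = 3.29e-11) in imDC against control, -1.03 (SE 0.041, adjusted p = 1.49e-10) in IRDC against control and 0.41 (SE 0.044, adjusted p = 6.41e-06) in IRDC against imDC. Col11a1 (ENSRNOG00000023148), a chain of cartilage collagen XI that also joins type V chains, stood at 216, 218, 214 and 214 FPKM in control libraries, 229, 228 and 226 in imDC and 177, 178, 174 and 175 in IRDC. For Col11a1, limma gave a log2 change of 0.08 (SE 0.015, adjusted p = 0.000482) in imDC against control, -0.29 (SE 0.014, adjusted p = 1.03e-09) in IRDC against control and -0.37 (SE 0.015, adjusted p = 6.76e-10) in IRDC against imDC. The rise of Col11a1 in imDC was small and did not pass under quantile normalization (adjusted p = 0.156). Col27a1 (ENSRNOG00000007657), a chain of a fibrillar collagen of cartilage, stood at 13.9, 14.2, 16.2 and 14.4 FPKM in control libraries, 11.6, 10.7 and 11.0 in imDC and 16.8, 16.9, 15.8 and 17.1 in IRDC. For Col27a1, limma gave a log2 change of -0.37 (SE 0.053, adjusted p = 5.9e-05) in imDC against control, 0.17 (SE 0.049, adjusted p = 0.00666) in IRDC against control and 0.54 (SE 0.053, adjusted p = 2.46e-06) in IRDC against imDC. Ranges of control and IRDC overlapped for Col27a1, through control replicate 3.

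**Figure D2:**
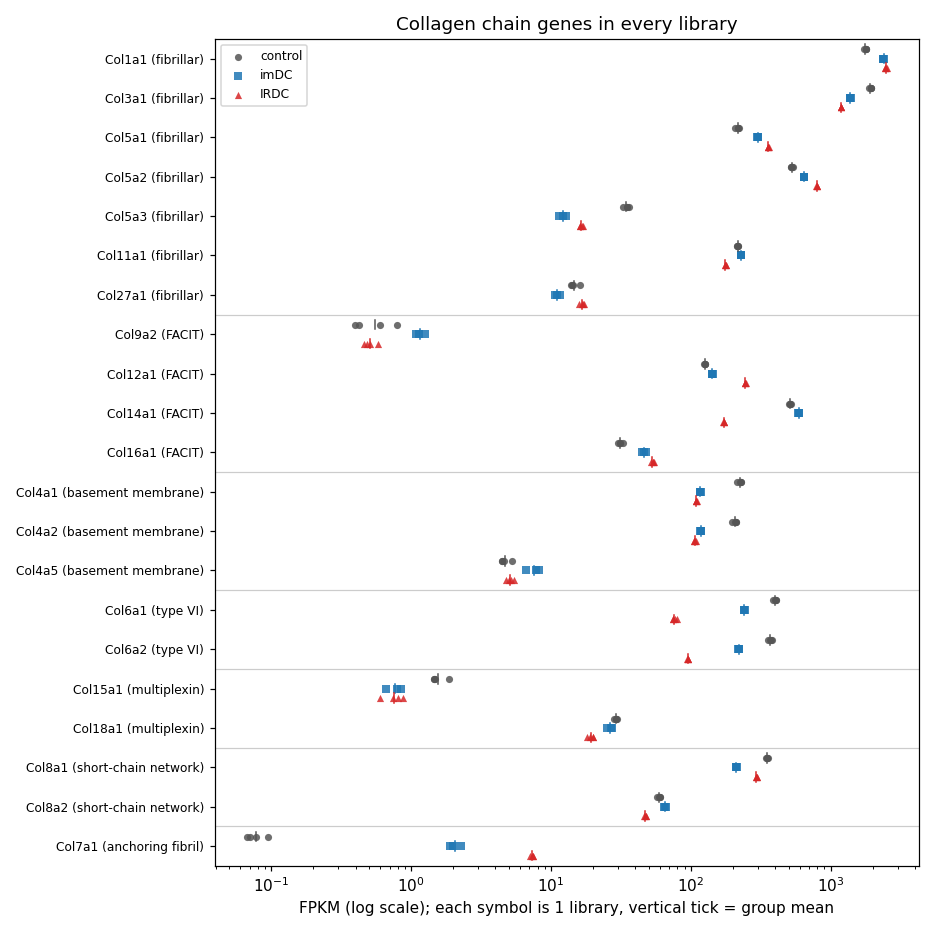
FPKM on a log axis (horizontal) of the 21 tested collagen chain genes (rows, by class), with a symbol for each library and a tick for the mean of control, imDC and IRDC. Libraries of a group lie close together, and Col7a1 spans 0.0668 to 7.45 FPKM while Col6a1 spans 74.2 to 405 FPKM.

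All 4 tested FACIT genes were higher in imDC against control under the deposited scaling, where 23.1% of all genes tested were called higher. Col9a2, among them, passed the filter only through imDC, so its rise there is a description. Col14a1 was lower in that comparison under quantile normalization. In IRDC Col12a1 rose and Col14a1 fell. Col12a1 (ENSRNOG00000058470), whose product bridges type I fibrils in tendon and other dense tissue, stood at 123, 126, 125 and 126 FPKM in control libraries, 141, 141 and 143 in imDC and 243, 247, 243 and 245 in IRDC. For Col12a1, limma gave a log2 change of 0.17 (SE 0.017, adjusted p = 1.59e-06) in imDC against control, 0.96 (SE 0.015, adjusted p = 1.69e-14) in IRDC against control and 0.79 (SE 0.017, adjusted p = 1.35e-12) in IRDC against imDC. Col14a1 (ENSRNOG00000026415), which encodes a relative that regulates fibril growth, stood at 511, 513, 505 and 519 FPKM in control libraries, 585, 596 and 593 in imDC and 171, 172, 169 and 171 in IRDC. The fall in IRDC put its 4 libraries below all others, and 0.99% of genes tested had a larger absolute change than Col14a1 between IRDC and imDC. For Col14a1, limma gave a log2 change of 0.21 (SE 0.014, adjusted p = 7.98e-08) in imDC against control, -1.58 (SE 0.013, adjusted p = 5.49e-17) in IRDC against control and -1.79 (SE 0.014, adjusted p = 9.84e-16) in IRDC against imDC. Under quantile normalization Col14a1 was lower, not higher, in imDC against control (log2 change -0.15, adjusted p = 3.13e-06). Col16a1 (ENSRNOG00000031475), a minor fibril-associated chain, stood at 31.2, 30.1, 32.5 and 31.3 FPKM in control libraries, 45.0, 46.4 and 47.5 in imDC and 53.3, 51.4, 54.1 and 53.1 in IRDC. For Col16a1, limma gave a log2 change of 0.55 (SE 0.031, adjusted p = 1.09e-08) in imDC against control, 0.74 (SE 0.029, adjusted p = 1.13e-10) in IRDC against control and 0.19 (SE 0.031, adjusted p = 0.000206) in IRDC against imDC. The remaining tested member, Col9a2, a type IX chain of cartilage, had means of 0.554 ± 0.184 FPKM in control, 1.16 ± 0.0865 in imDC and 0.507 ± 0.0504 in IRDC and passed the filter only through imDC. Its change of -0.04 in IRDC against control (adjusted p = 0.738) was 0.23 (adjusted p = 0.0422) under quantile normalization.

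The main basement membrane chains fell together. Col4a1 (ENSRNOG00000016281), which assembles with the product of Col4a2 in nearly all basement membranes, stood at 227, 214, 224 and 226 FPKM in control libraries, 116, 116 and 119 in imDC and 109, 110.3, 109 and 108 in IRDC. Col4a2 (ENSRNOG00000023972), its partner across the 76 bases printed above, stood at 211, 197, 206 and 209 FPKM in control libraries, 118, 116 and 118 in imDC and 105, 106, 107 and 109 in IRDC. Every library of imDC and IRDC was below every control library for both genes, while imDC and IRDC lay close to each other. For Col4a1, limma gave a log2 change of -0.92 (SE 0.022, adjusted p = 3.35e-12) in imDC against control, -1.02 (SE 0.021, adjusted p = 1.89e-13) in IRDC against control and -0.10 (SE 0.022, adjusted p = 0.00304) in IRDC against imDC. For Col4a2, limma gave a log2 change of -0.80 (SE 0.024, adjusted p = 2.79e-11) in imDC against control, -0.94 (SE 0.022, adjusted p = 8.95e-13) in IRDC against control and -0.14 (SE 0.024, adjusted p = 0.000348) in IRDC against imDC. With TMM-like scaling the step from imDC to IRDC did not pass for Col4a1 (adjusted p = 0.753) or Col4a2 (0.0985). Col4a5, a chain of kidney and epithelial basement membranes, went the other way in imDC, with means of 4.68 ± 0.358 FPKM in control, 7.52 ± 0.834 in imDC and 5.10 ± 0.284 in IRDC. For Col4a5, limma called the rise in imDC (log2 change 0.58, SE 0.076, adjusted p = 2.79e-05), and the change of 0.10 in IRDC against control (adjusted p = 0.204) passed with TMM-like scaling (log2 change 0.26) and quantile normalization (0.33). Col4a3, Col4a4 and Col4a6, the other chains of that network, stayed at or under 0.168 FPKM.

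Both abundant type VI genes fell in imDC and fell further in IRDC. Col6a1 (ENSRNOG00000001249), which encodes a chain required for every type VI filament, stood at 405, 384, 397 and 404 FPKM in control libraries, 237, 239.8 and 245 in imDC and 78.9, 74.2, 76.3 and 74.7 in IRDC. Col6a2 (ENSRNOG00000001254), the neighbouring gene on chromosome 20, for the partner chain, stood at 379, 355, 369 and 373 FPKM in control libraries, 217, 221 and 219.9 in imDC and 94.1, 95.2, 95.8 and 95.6 in IRDC. In both genes the 3 groups lay apart, with IRDC lowest. For Col6a1, limma gave a log2 change of -0.72 (SE 0.025, adjusted p = 1.18e-10) in imDC against control, -2.37 (SE 0.023, adjusted p = 2.1e-16) in IRDC against control and -1.65 (SE 0.025, adjusted p = 8.09e-14) in IRDC against imDC. For Col6a2, limma gave a log2 change of -0.75 (SE 0.021, adjusted p = 1.61e-11) in imDC against control, -1.94 (SE 0.02, adjusted p = 2.78e-16) in IRDC against control and -1.20 (SE 0.021, adjusted p = 3.45e-13) in IRDC against imDC. The ratio of means, control over IRDC, was 5.22 for Col6a1 and 3.88 for Col6a2. Among all genes tested, 2.88% had a larger absolute change than Col6a1 and 4.83% a larger one than Col6a2 in IRDC against control. Col6a5, a chain that can take the place of the alpha3 chain of type VI, missed the filter with 168, 184, 239 and 150 reads in control libraries, 12, 6 and 18 in imDC and 1 read in each IRDC library. Its mean level went from 1.02 ± 0.125 FPKM in control to 0.0802 ± 0.0384 in imDC and 0.00596 ± 0.000145 in IRDC, and it was given no test.

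Col7a1, the gene of the anchoring fibril of skin, rose from a level near 0. Col7a1 (ENSRNOG00000020579), a single-gene homotrimer, stood at 0.0668, 0.0775, 0.0940 and 0.0709 FPKM in control libraries, 2.25, 1.98 and 1.89 in imDC and 7.45, 7.04, 7.29 and 7.40 in IRDC. These levels rest on 13 to 22 reads in control, 340 to 367 in imDC and 1357 to 1457 in IRDC libraries. Col7a1 passed the filter only through imDC and IRDC, where it was high, so its p-values against control are a description. For Col7a1, limma gave a log2 change of 1.50 (SE 0.069, adjusted p = 1.49e-09) in imDC against control, 2.94 (SE 0.064, adjusted p = 3.25e-13) in IRDC against control and 1.45 (SE 0.069, adjusted p = 2.77e-09) in IRDC against imDC. The ratio of means was 26.4 in imDC and 94.4 in IRDC over control, which the log2(FPKM + 1) scale understates. The level reached in IRDC stayed far under those of the fibrillar chains.

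The chains of type VIII, a network-forming collagen of vessel walls and cornea, did not move together. Col8a1 (ENSRNOG00000039668), the more abundant chain, stood at 353, 346, 350.0 and 349.8 FPKM in control libraries, 211, 213 and 209 in imDC and 296, 293, 290.4 and 295 in IRDC. For Col8a1, limma gave a log2 change of -0.73 (SE 0.015, adjusted p = 6.21e-13) in imDC against control, -0.25 (SE 0.014, adjusted p = 3.14e-09) in IRDC against control and 0.47 (SE 0.015, adjusted p = 5.04e-11) in IRDC against imDC. Col8a2 (ENSRNOG00000010841), the other chain, stood at 59.6, 57.2, 59.9 and 59.4 FPKM in control libraries, 66.3, 64.1 and 65.5 in imDC and 46.6, 46.3, 47.3 and 47.6 in IRDC. For Col8a2, limma gave a log2 change of 0.14 (SE 0.024, adjusted p = 0.000205) in imDC against control, -0.32 (SE 0.022, adjusted p = 3.5e-08) in IRDC against control and -0.47 (SE 0.024, adjusted p = 5.83e-09) in IRDC against imDC. Col8a1 was lowest and Col8a2 highest in imDC, and no groups overlapped in any comparison. Relative to the median of all genes, the change of Col8a1 in IRDC against control was -0.07. Col18a1 (ENSRNOG00000001229), a basement membrane collagen whose end fragment is endostatin, stood at 29.2, 28.2, 29.1 and 29.5 FPKM in control libraries, 27.2, 25.2 and 27.0 in imDC and 19.8, 18.1, 18.9 and 20.03 in IRDC. For Col18a1, limma gave a log2 change of -0.13 (SE 0.04, adjusted p = 0.0142) in imDC against control, -0.57 (SE 0.037, adjusted p = 2.16e-08) in IRDC against control and -0.44 (SE 0.04, adjusted p = 1.35e-06) in IRDC against imDC. The fall of Col18a1 in imDC did not pass with TMM-like scaling (adjusted p = 0.511), with quantile normalization (0.255) or without imDC replicate 2 (0.0752), while that in IRDC passed under each of these. Col15a1, its relative in type XV collagen, stood at means of 1.56 ± 0.198 FPKM in control, 0.767 ± 0.0959 in imDC and 0.753 ± 0.114 in IRDC. Col15a1 passed the filter only through control, where it was high, so its calls against control are a description. It was called lower in both comparisons with control (log2 changes -0.53 and -0.55), while imDC and IRDC overlapped (log2 change -0.01, adjusted p = 0.92). Under quantile normalization Col15a1 was higher in IRDC than in imDC (0.24, adjusted p = 0.0315).

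The 21 genes under the filter include those of cartilage collagen II and of growth plate collagen X. Col2a1 had at most 2 reads in a library, and Col10a1 had 4 to 8 reads. For Col23a1 every library held 0 reads, a count compatible with up to 3. Col11a2 lay between 0.523 and 0.822 FPKM in all 11 libraries, and its groups overlapped. Col22a1, a FACIT of tissue junctions, went from 20 to 32 reads in control libraries to 7 to 14 in imDC and 1 to 3 in IRDC. Col4a3 went from 5 to 7 reads in control and 5 to 10 in imDC to 19 to 24 in IRDC libraries. Col25a1, a transmembrane collagen of neurons, had 11 to 15 reads in imDC libraries, 1 to 7 in control and 2 to 5 in IRDC. These genes were not tested, and the reads are the smallest whole numbers that give the values, so they may be too low.

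**Figure D3:**
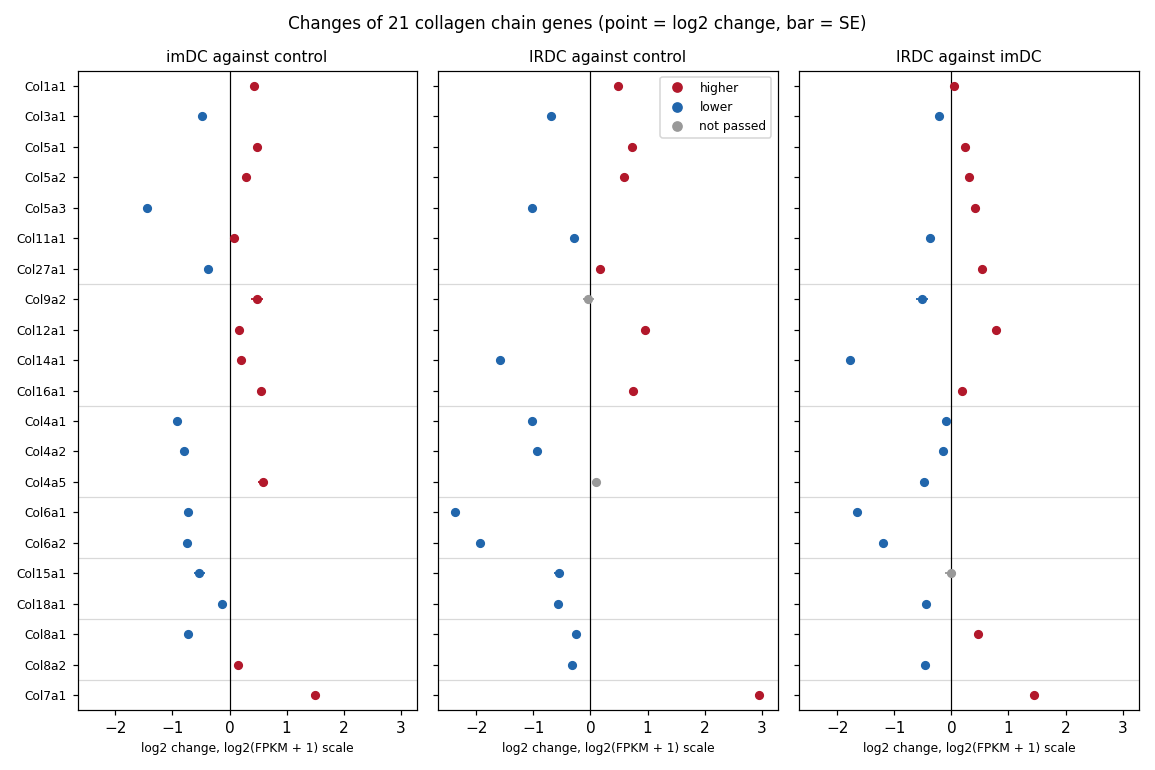
Log2 change (horizontal axis, log2(FPKM + 1) scale) of the 21 tested collagen chain genes in the 3 comparisons, with points for the change and bars for the SE, coloured by whether limma called the gene higher, lower or not. Col6a1 and Col6a2 are lower in all 3 panels and Col7a1 is higher in all 3, whereas Col14a1 lies at 0.21 in imDC against control (-0.15 under quantile normalization) and at -1.79 in IRDC against imDC.

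Across the 3 groups the 21 tested genes followed several orders, read from their calls. The share of all genes with each order was not computed. Col7a1, Col9a2 and Col15a1 passed the filter only through the groups where they were high. Their place in these orders and in the overlap counts is therefore a description. In 6 genes, Col1a1, Col5a1, Col5a2, Col12a1, Col16a1 and Col7a1, the level rose from control to imDC and again to IRDC, except that Col5a2 fell in imDC against control under quantile normalization. The small step of Col1a1 from imDC to IRDC was lost in some settings, as given above. In 6 others, Col3a1, Col4a1, Col4a2, Col6a1, Col6a2 and Col18a1, it fell at both steps under the deposited scaling. With TMM-like scaling the step from imDC to IRDC did not pass for Col4a1 or Col4a2. For Col18a1 the step from control to imDC did not pass with TMM-like scaling or quantile normalization. Col9a2, Col11a1, Col14a1, Col4a5 and Col8a2 were highest in imDC, and Col5a3, Col27a1 and Col8a1 were lowest there. Under quantile normalization Col14a1 was not highest in imDC, and the rise of Col11a1 from control to imDC did not pass. Col15a1 fell in imDC and did not differ detectably between imDC and IRDC. Libraries did not overlap between groups in 21 genes for imDC against control, 18 for IRDC against control and 20 for IRDC against imDC, where 62.8%, 70.2% and 59.0% of all genes tested did not overlap. Of the 17 abundant genes, 17, 16 and 17 did not overlap, against 72.1%, 78.6% and 68.2% of genes at that level.

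Ratios of FPKM between chains were taken within each library, as values with no test. Col3a1 over Col1a1 was 1.09 ± 0.00413 in control, 0.577 ± 0.00346 in imDC and 0.478 ± 0.00286 in IRDC, so that Col3a1 exceeded Col1a1 in each control library and in none of the others. Col5a3 over Col5a1 was 0.160 ± 0.00365 in control, 0.0403 ± 0.00252 in imDC and 0.0460 ± 0.00103 in IRDC. Col5a1 over Col5a2 was 0.399 to 0.417 in control, 0.462 to 0.472 in imDC and 0.445 to 0.456 in IRDC, 3 ranges that did not overlap. Col11a1 over Col5a1 was 0.999 ± 0.0360 in control, 0.758 ± 0.00409 in imDC and 0.493 ± 0.00858 in IRDC, a fall at each step. Col4a1 over Col4a2, the partner chains of type IV, was 1.07 to 1.09 in control, 0.980 to 1.00 in imDC and 0.994 to 1.05 in IRDC, so that control lay above both and imDC and IRDC overlapped. Col6a1 over Col6a2 was 1.08 ± 0.00650 in control, 1.10 ± 0.0133 in imDC and 0.799 ± 0.0273 in IRDC, with no overlap between IRDC and the others. Col8a1 over Col8a2 was 5.93 ± 0.0886 in control, 3.23 ± 0.0800 in imDC and 6.25 ± 0.106 in IRDC. Col12a1 over Col14a1 was 0.245 ± 0.00323 in control, 0.239 ± 0.00288 in imDC and 1.43 ± 0.00872 in IRDC, and only the IRDC libraries held more Col12a1 than Col14a1 mRNA per length.

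**Figure D4:**
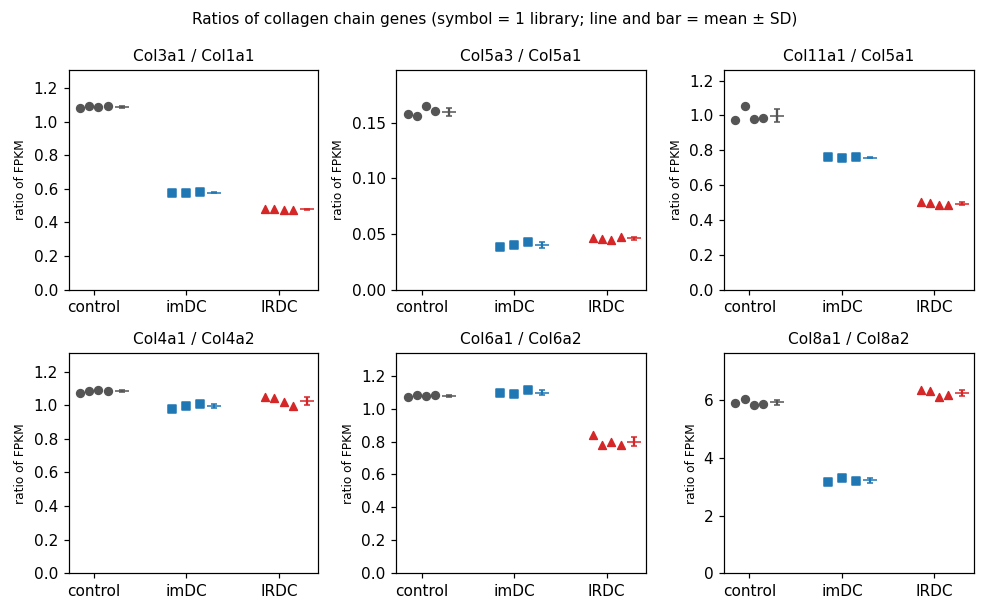
Ratio of FPKM between collagen chain genes (vertical axes, starting at 0) in each library of control, imDC and IRDC, with the mean and SD beside the symbols. Col4a1 over Col4a2 is 1.07 to 1.09 in control and lower in the other libraries, Col6a1 over Col6a2 is 0.780 to 0.838 in IRDC, and Col8a1 over Col8a2 is lowest in imDC.

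Of 18 listed genes that fold and modify collagen chains 15 were tested, and 13 rose and 1 fell in imDC against control, 11 rose and 1 fell in IRDC against control, and 7 rose and 4 fell in IRDC against imDC. Over all genes tested 63.2%, 76.0% and 58.8% were called in these comparisons, so called counts of this and the next 3 lists are read beside those shares. With TMM-like scaling the list had 14 higher and 0 lower in both comparisons with control, and 9 higher and 2 lower in IRDC against imDC. With quantile normalization it had 12 higher and 1 lower in imDC against control, 11 and 2 in IRDC against control, and 7 and 4 in IRDC against imDC. There limma gave Serpinh1, a member of the list, a log2 change of -0.15 (adjusted p = 6.17e-06) in imDC against control, not 0.20. Ppib, another member, then passed in neither comparison with control. Under the deposited scaling the gene that fell in both imDC and IRDC against control was P3h4, a partner of prolyl 3-hydroxylases, and its falls did not pass with TMM-like scaling. Plod2, the lysyl hydroxylase of telopeptide cross-links, stood at 83.0 ± 2.18 FPKM in control, 335 ± 1.86 in imDC and 706 ± 14.8 in IRDC, with log2 changes of 2.00 (SE 0.022, adjusted p = 2.44e-15) in imDC and 3.07 (SE 0.021, adjusted p = 8.64e-18) in IRDC against control. P4ha2, a prolyl 4-hydroxylase subunit gene, stood at 63.5 ± 2.48 FPKM in control, 231 ± 2.77 in imDC and 327 ± 4.09 in IRDC. P4ha1, another such subunit gene, rose in both imDC and IRDC and stood at 194 ± 6.88 FPKM in control, 421 ± 6.40 in imDC and 389.8 ± 3.48 in IRDC. Colgalt2, a collagen galactosyltransferase gene that passed the filter only through IRDC, where it was high, stood at 0.0899 ± 0.0387 FPKM in control, 0.848 ± 0.227 in imDC and 2.06 ± 0.278 in IRDC. Genes of procollagen processing and cross-linking were split, with 3 of 10 tested higher and 6 lower in imDC against control, 5 and 5 in IRDC against control, and 4 and 6 in IRDC against imDC. With TMM-like scaling the imDC against control split was 3 higher and 4 lower, since Bmp1 and Tll1 did not pass. The lysyl oxidase relatives Loxl1 and Loxl3 fell at each step while Loxl4 was highest in imDC. Loxl1 stood at 151 ± 4.37 FPKM in control, 85.8 ± 3.17 in imDC and 35.7 ± 2.14 in IRDC. Loxl3 stood at 76.4 ± 2.16 FPKM in control, 56.4 ± 0.736 in imDC and 19.9 ± 1.10 in IRDC. Loxl4 stood at 1.64 ± 0.0555 FPKM in control, 7.00 ± 0.691 in imDC and 4.45 ± 0.289 in IRDC. Adamts14, which encodes an enzyme that trims procollagen, rose at each step and stood at 1.80 ± 0.322 FPKM in control, 4.43 ± 0.464 in imDC and 7.69 ± 0.367 in IRDC. Tll1, which encodes a protease that removes the end of procollagen, fell in IRDC and stood at 69.0 ± 0.872 FPKM in control, 64.4 ± 1.23 in imDC and 30.7 ± 0.799 in IRDC. Lox, the founding lysyl oxidase gene and chosen here after its values were seen, rose at each step and stood at 542 ± 7.07 FPKM in control, 932 ± 29.8 in imDC and 1033 ± 13.0 in IRDC.

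Of 8 genes of collagen breakdown 7 were tested, with 3 higher and 4 lower in each comparison with control, and 5 higher and 1 lower in IRDC against imDC, again where 63.2%, 76.0% and 58.8% of all genes were called. Mmp13, the main interstitial collagenase of rodents, rose at each step and stood at 35.7 ± 1.15 FPKM in control, 69.1 ± 3.72 in imDC and 248 ± 8.14 in IRDC. Mmp9, a gelatinase gene, also rose at each step and stood at 1.09 ± 0.0404 FPKM in control, 4.51 ± 0.584 in imDC and 7.73 ± 0.462 in IRDC. Mmp8, the neutrophil collagenase gene, is counted among the lower genes but passed the filter only through control, where it was high, and stood at 2.23 ± 0.265 FPKM in control, 0.315 ± 0.128 in imDC and 0.445 ± 0.0829 in IRDC. Mmp14, which encodes a membrane-bound collagenase, fell in both imDC and IRDC and stood at 476 ± 6.80 FPKM in control, 280.5 ± 1.90 in imDC and 382 ± 7.96 in IRDC. Among collagen receptors 6 of 9 were tested, with 3 higher and 2 lower in imDC against control, and 3 and 3 in each of the other comparisons. Under quantile normalization the imDC against control split was 2 higher and 3 lower, with Itgb1, the integrin beta chain shared by collagen receptors, turning from a log2 change of 0.16 to -0.13 (adjusted p = 8.75e-06). Itga2, an integrin chain that binds type I collagen, is counted among the higher genes but passed the filter only through imDC and IRDC, where it was high, and stood at 0.283 ± 0.0684 FPKM in control, 2.04 ± 0.215 in imDC and 3.44 ± 0.138 in IRDC. Itga1, its relative, rose at each step and stood at 13.7 ± 0.653 FPKM in control, 21.2 ± 0.407 in imDC and 26.2 ± 0.245 in IRDC. Ddr1 and Ddr2, the discoidin receptors of collagen, fell in both imDC and IRDC. Ddr1 stood at 26.4 ± 0.783 FPKM in control, 16.7 ± 0.257 in imDC and 12.6 ± 0.435 in IRDC, and Ddr2 at 149.9 ± 1.50 FPKM in control, 91.9 ± 0.305 in imDC and 89.1 ± 0.0490 in IRDC. All these lists were chosen with earlier results of these data known.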

How the data were processed

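Poly(A) RNA of rat BMSCs was sequenced on an Illumina instrument, per the labels' protocols. The authors deposited 1 FPKM table of 32883 genes and 11 libraries. The submitters' processing notes name build rn6 and the tools STAR 2.7.1a, HTSeq 0.13.5, Cufflinks 0.17.3, FastQC 0.11.9, SAMtools 1.3.1 and cutadapt 1.18, without their roles. Strandedness is not given in the sources used here, so reads of overlapping antisense genes cannot be told apart. From these values, log2(FPKM + 1) was fitted with limma 3.58.1 (R 4.3.3, moderated with a variance trend) over all 3 groups. The 12521 genes with at least 1 FPKM in 3 libraries were tested, with Benjamini-Hochberg adjustment over all of them. Fold changes on this scale understate the change of low genes. The FPKM steps gave whole reads for 21487 of 21487 genes above 0, within a relative tolerance of 1e-08 and 0.1 read. These reads were used for depth, and voom on them was an alternative. The count 0 allows up to 3 reads, for counting error only. Genes with a mean of at least 10 FPKM in a group, or called with a 2-fold change, are given in full, and of each pathway list up to 3 called genes with the largest changes per comparison. The members and lists were chosen with earlier results of these data known. Replicate numbers in the titles were not taken as pairs. The fit was tested on simulated data. Tables and figures used Python 3.11.15, pandas 2.3.3 and matplotlib 3.10.9.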

Additional observations from a re-analysis of the deposited data

Results flagged for a closer look

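Within groups of 4 libraries, 64 sets of values of collagen genes and ratios were checked for a library that stood apart from the other 3, and 3 did, where chance gives about 1 in 20. Col3a1 stood at 1872 FPKM in control replicate 2, below the 1928 to 1939 FPKM of the other control libraries. The ratio of Col11a1 to Col5a1 was 1.052 in that library, above the 0.976 to 0.985 of the others. Col15a1 stood at 1.856 FPKM in control replicate 3, above 1.448 to 1.479 FPKM in the others. No call on Col3a1 or Col15a1 against control changed when any single library was left out.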

How the results depend on the processing

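Changes of single collagen genes were recomputed 1308 times under up to 21 alternatives (pseudocount, filter, scaling, libraries in the fit, variance trend, voom and leaving out each library). Of these, 1293 kept their call, and a change that passed in neither fit counted as kept whatever its direction. Another 9 no longer passed, 2 newly passed and 4 changed direction with a pass in at least the main or the alternative fit. The 4 arose under quantile normalization, where Col5a2 (-0.072, adjusted p = 0.00135) and Col14a1 (-0.145, 3.13e-06) were lower in imDC against control, Col9a2 was higher in IRDC against control (0.23, 0.0422) and Col15a1 higher in IRDC against imDC (0.24, 0.0315). The cause was not tested. Of 63 pairs of a gene and a comparison, 53 kept their call under every alternative that tested them. Without the 2 highest other genes the collagen share was 1.66% in control, 1.55% in imDC and 1.45% in IRDC. Leaving out 1 library gave 19 to 21 collagen genes called in imDC against control, 19 in IRDC against control and 18 to 20 in IRDC against imDC. Over all genes, 7342 to 7890, 9244 to 9489 and 6739 to 7340 were then called, of 12421 to 12484 tested. Col9a2 missed the filter whenever an imDC library was left out, so it was not tested there. Without a filter 28, 27 and 25 collagen genes were called, beside 8445, 10773 and 7570 of the 21487 genes then tested.

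The replicate number as a block gave 21, 19 and 20 collagen calls, as without it, and 7733, 9508 and 7110 calls among all genes, against 7912, 9517 and 7362. Deviations of same-numbered control and IRDC libraries correlated at 0.022 to 0.069, above those of each control library with the differently numbered IRDC libraries. For same-numbered pairs with an imDC library the values were -0.048 to 0.041. All of these correlations were small, and the numbers were not taken as pairs. Planned ratios with Col1a2 and Col6a3 were not run. The filter of 5 FPKM gave no value for Col9a2 or Col15a1.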
